A study of Homo sapiens with 19 samples.

Results

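Doxycycline under the LSD1 inhibitor GSK2879552 was examined for the K185R mutant of E2F1 by setting 2 deposited lists of V5 ChIP-seq intervals side by side. One list came from cells that received 0.25 ug/ml doxycycline for 3 days and 50 uM GSK2879552 for 24 hours, and it held 3498 intervals. The other came from cells that received GSK2879552 alone at the same dose and time, and it held 9899 intervals. Together they are 13397 of the 203381 intervals in the 10 lists of the series. Both groups were C4-2 cells, an established prostate cancer line, grown in RPMI medium with charcoal-stripped serum and carrying a tetracycline-controlled E2F1 K185R that is precipitated through its V5 tag. Each group had 2 libraries, which the authors joined into 1 list, so no value below carries a replicate error and no test between the groups is possible. The labels do not say how many clones the line holds, and the sources used here do not say whether tagged E2F1 was made without doxycycline. The 2 lists carry the words siRB (doxycycline) and siNTC (no doxycycline) in their names where the labels give the doxycycline treatment. Whether these words mean that RB was depleted in the cells given doxycycline is not stated in the sources used here. If it was, doxycycline and RB depletion cannot be told apart in any comparison below. Groups follow the labels here, and positions are those of build hg19.

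E2F1 is a transcription factor that switches on genes for DNA replication and cell division, and the retinoblastoma protein RB binds it and holds those genes back. LSD1 removes methyl groups from lysines of histones and of other proteins. The lysine of E2F1 that is replaced in K185R is a known methylation site that LSD1 can demethylate, and the arginine in its place cannot take that mark. RB sites are therefore the natural place to look for E2F1, and RB intervals from untreated C4-2 cells (2 libraries) and from untreated VCaP cells (1 library), another prostate cancer line, were used as landmarks. The C4-2 RB list carries the name of a single library, so it is not known whether it joins both.

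Intervals of the 2 K185R lists were called shared when they overlapped by at least 1 base, lost when they occurred with GSK2879552 alone and met nothing in the list with doxycycline, and gained in the opposite case. These words describe membership of lists, since reads below the calling threshold are not seen. With doxycycline the list was 0.353 times as long. Of the GSK2879552 list, 9154 of 9899 intervals (92.5%, 95% Wilson interval 91.9 to 93.0) were lost and 745 were shared. Of the list with doxycycline, 2756 of 3498 (78.8%, 77.4 to 80.1) were gained and 742 were shared. Thus the shared part was 21.2% of one list and 7.53% of the other. It rose to 75.6% of the list with doxycycline at −log10 q of at least 5 and to 50.1% among the 1000 highest of each list, and was 12.6% at low local background, which is defined below. Wilson intervals here and below cover counting error over intervals only, and reads amplified by PCR are not independent molecules.

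Both lists rested on few reads. The depth was 0.838 reads per kilobase with doxycycline and 1.02 without, a ratio of 0.818, and 66.5% and 73.3% of intervals had 5 or fewer reads at their summit. The deposited fold enrichment, which sets summit reads over the reads expected locally, had a median of 5.01 and 4.86. Intervals of −log10 q from 5 upward gave a length ratio of 0.652 in place of 0.353. If each read of the deeper list were kept with a chance equal to the ratio of depths, 8882 of its 9899 intervals would be expected to pass. Of the 9154 lost ones, 8154 (89.1%) would be among them. This expectation starts from the reads that made each interval pass, whereas the other list comes from separate libraries. It therefore does not say how many intervals would be called again at the lower depth, and the part of depth in the loss was not tested.

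Gained and lost intervals were alike in strength, and shared ones were stronger. Gained intervals had a median fold of 4.96 and 5 summit reads, and lost intervals a median fold of 4.81 and 5 summit reads. Shared intervals had a median fold of 5.79 with doxycycline and 6.02 without, on 16 and 18 reads. At most 5 reads stood behind 79.9% of gained, 78.0% of lost and 16.8% of shared intervals, the last counted in the list with doxycycline. Many were as narrow as the list allows (190 bases with doxycycline, 176 without), namely 76.1% of gained and 66.9% of lost intervals, against 20.4% of shared ones with doxycycline.

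Local background separated the shared intervals further. The floor of a list is its genome-wide expectation of reads, and a background 10 or more times as high as the floor is called high here. Of the 742 shared intervals, 333 lay on high background with doxycycline, against 42 of 2756 gained and 139 of 9154 lost ones. High-background intervals were thus shared in 88.8% of cases with doxycycline and 71.2% without. Of the 333 shared ones on high background, 305 overlapped a C4-2 RB site (91.6%), against 156 of the 409 on low background (38.1%). The shared high-background interval of highest −log10 q lay on chromosome 1 from 121483968 to 121485518, with 355 summit reads with doxycycline and 343 without. No list of the 10 lacked an interval at this place. Nor did any lack one on chromosome 3 from 196625514 to 196625904, with 141 and 137 reads and folds of 29.6 and 31.4, and RB folds of 37.4 in C4-2 and 15.7 in VCaP.

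Among low-background intervals, those with more reads were more often found again, and at equal reads the loss exceeded the gain. With 5 summit reads 98.2% of GSK2879552 intervals were lost and 94.1% of intervals with doxycycline were gained. With 9 to 12 reads the shares were 62.5% (140 of 224, Wilson interval 56.0 to 68.6) and 24.0% (25 of 104, 16.8 to 33.1). With 13 to 20 reads they were 33.0% (33 of 100) and 5.80% (4 of 69). Above 20 reads 2 of 35 were lost and none of 28 were gained. Taking all low-background intervals of 9 or more reads, 175 of 359 were lost (48.7%, 43.6 to 53.9) and 29 of 201 were gained (14.4%, 10.2 to 19.95). A summit of 11 reads in the deeper list corresponds to 9 in the shallower one, and from 11 reads on 79 of 219 intervals were lost (36.1%, 30.004 to 42.6). That is above the 14.4% gained from 9 reads on, and the Wilson intervals were separate. The intervals of 11 or more reads are still sought in the shallower list, and those of 9 or more in the deeper one. This count therefore does not make the chance of being found again equal. Depth and doxycycline cannot be told apart with 1 list per group.

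**Figure D1:**
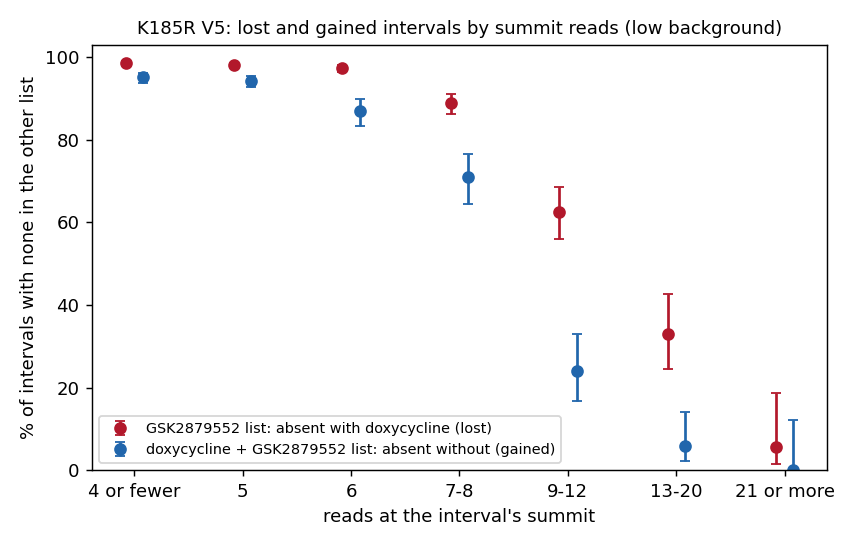
Share of low-background K185R V5 intervals (y axis, percent) that had no counterpart in the other list, by reads at the summit (x axis), with 95% Wilson intervals. Red points are intervals of the GSK2879552 list that were absent with doxycycline and blue points the reverse. With 9 to 12 reads 62.5% were lost and 24.0% gained.

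The same count in the other doxycycline pairs went in both directions. In wild-type (WT) E2F1 cells under GSK2879552, 140 of 441 such intervals were absent with doxycycline (31.7%) and 238 of 556 were absent without it (42.8%). In K185R cells that received no inhibitor, 1039 of 1721 were absent with doxycycline (60.4%) and 114 of 535 without it (21.3%). The depth with doxycycline was 1.13 times that without in the WT pair and 0.625 times in the K185R pair without inhibitor, and in WT cells without inhibitor it was 1.15 times. In that last pair 172 of 598 were absent with doxycycline (28.8%) and 1153 of 1713 without it (67.3%). In each of the 4 pairs the deeper list had the larger share without a counterpart. The part of depth in these shares was not tested, and whether the pairs differ was not tested.

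The strongest gained intervals of low background were mostly sites that other lists also held. The top one lay on chromosome 17 from 43129237 to 43129527, with a fold of 9.76 on 16 reads. It was absent from the K185R GSK2879552 list and the untreated K185R list, and it had 12 reads with doxycycline alone. In WT cells it had 12 reads untreated, 15 with doxycycline, 25 with doxycycline and GSK2879552, and none called with GSK2879552 alone. Thus the 4 lists from cells given doxycycline and the untreated WT list had an interval there, and the other 3 V5 lists and both RB lists had none.

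The second, on chromosome 14 from 77735899 to 77736236, had a fold of 8.82 on 11 reads and was found in each of the other 6 V5 lists with 6 to 11 reads. It also overlapped a C4-2 RB site with a fold of 4.94. On chromosome 2 from 232443577 to 232444123 the fold was 8.51 on 13 reads, and the other 6 V5 lists had 7 to 25 reads there. On chromosome Y from 13710984 to 13711288 it was 7.73 on 17 reads, with an interval in 5 of the other 6 V5 lists. A different case was chromosome 13 from 69610340 to 69610672, with a fold of 8.27 on 9 reads, found elsewhere only in untreated K185R cells (12 reads) and WT cells with doxycycline (5 reads). Of the 29 gained intervals of low background with 9 or more reads, 3 were in none of the other 6 V5 lists.

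The strongest lost intervals of low background were likewise known to most lists. All 5 overlapped a C4-2 RB site and none overlapped a VCaP RB interval. Among the 175 lost intervals of low background with 9 or more reads, 72 overlapped a C4-2 RB site (41.1%) and 17 a VCaP one (9.71%). On chromosome 5 from 46391559 to 46391858 the fold was 10.6 on 21 reads, and each of the other 6 V5 lists had 16 to 25 reads there. On chromosome 20 from 29804387 to 29804581 it was 10.3 on 20 reads, with 13 to 35 reads in the other 6. On chromosome 11 from 48867658 to 48867957 it was 9.16 on 23 reads, with 12 to 23 reads in the other 6. In these 3 places the list with doxycycline and GSK2879552 was the one V5 list of 8 without an interval.

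The lost interval on chromosome 1 from 249200774 to 249201039 had a fold of 10.999 on 16 reads. It was found in 4 of 4 WT lists, with 19 reads under doxycycline and GSK2879552, and in untreated K185R cells with 9 reads. Neither K185R list with doxycycline held it. On chromosome 5 from 49513661 to 49513954 the fold was 8.96 on 19 reads, and 5 of the other 6 V5 lists had 14 to 21 reads. Of the high-background lost intervals, the 2 of highest −log10 q lay on chromosome 16 from 33955635 to 33955885 (fold 6.08, 47 reads) and on chromosome 5 from 49405749 to 49406058 (fold 7.81, 27 reads). Both overlapped a C4-2 RB site, as did 99 of the 139 high-background lost intervals (71.2%).

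Over whole classes, gained and lost intervals were found in the other V5 lists at similar rates, and lost ones more often in the RB lists. Untreated K185R cells held 20.3% of gained (Wilson interval 18.9 to 21.9) and 20.9% of lost intervals (20.05 to 21.7). K185R cells with doxycycline alone held 9.94% of gained (8.88 to 11.1) and 10.4% of lost ones (9.83 to 11.1). Gained intervals were therefore not detectably more frequent than lost ones in the other K185R list with doxycycline. WT cells with doxycycline, the longest list, held 21.8% and 22.3%. In WT cells with both agents these shares were 2.87% and 3.67%, and with GSK2879552 alone 2.14% and 2.86%. The C4-2 RB list held 1.71% of gained (1.28 to 2.26) and 3.35% of lost intervals (3.00 to 3.74), and the VCaP RB list 0.653% (0.414 to 1.03) and 1.61% (1.37 to 1.88). In both RB lists the Wilson intervals were separate. They overlapped among low-background intervals of 9 or more reads, with 27.6% of gained (14.7 to 45.7) and 41.1% of lost (34.1 to 48.5) in C4-2. In VCaP these shares were 6.90% (1.91 to 22.0) and 9.71% (6.15 to 15.0). On high background the shares were 66.7% of gained and 71.2% of lost in C4-2. In VCaP they were in the other order there, 23.8% (13.5 to 38.5) and 14.4% (9.51 to 21.2). In all, 58.5% of gained and 58.0% of lost intervals occurred in none of the other 6 V5 lists. Shared intervals differed from both, since 420 of 742 (56.6%) occurred in all 6 and 5.12% in none.

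**Figure D2:**
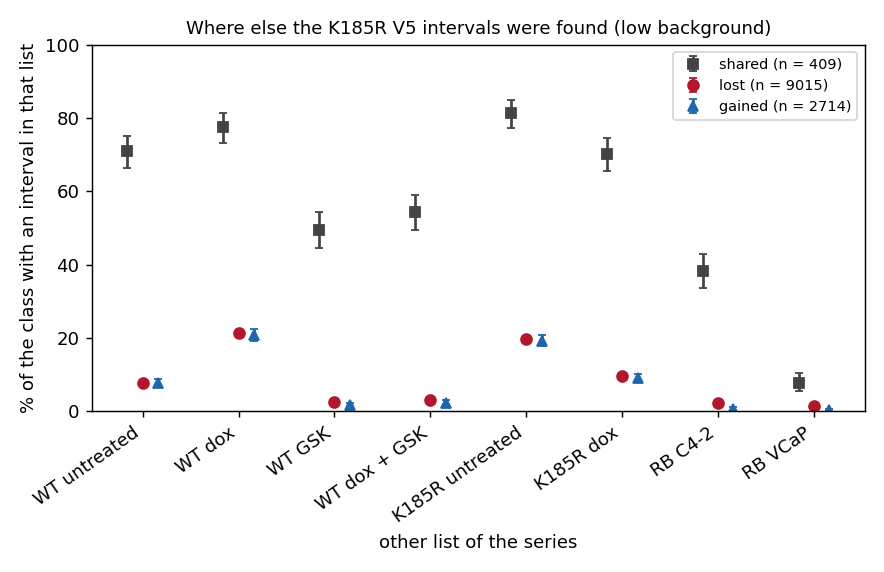
Share of low-background K185R V5 intervals of each class (y axis, percent) that overlapped an interval of each other list of the series (x axis; dox, doxycycline; GSK, GSK2879552), with 95% Wilson intervals. The 409 shared intervals, counted in the list with doxycycline, lie above the 9015 lost and 2714 gained ones in every list, and lost and gained points lie close together in the V5 lists. In the RB lists the lost points lie above the gained ones, with 208 of 9015 against 19 of 2714 in C4-2.

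Where both K185R lists had an interval, its strength was similar. Over 742 pairs the fold was higher with doxycycline in 332 (44.7%). Among the 394 pairs of low background in both lists the median fold was 6.04 with doxycycline and 6.41 without, and it was higher with doxycycline in 176 (44.7%). Reads divided by depth were 1.13 times as high with doxycycline in the median pair of low background, with 0.917 and 1.47 as quartiles. The fold and the reads per depth thus differed in direction, and an interval enters these pairs only if it passed the threshold in both lists. Summits of low-background pairs lay 22 bases apart in the median, and 80.7% were within 100 bases.

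The leading shared intervals mostly had similar folds in both K185R lists. On chromosome 9 from 44070568 to 44070909 the fold was 29.0 without and 26.7 with doxycycline, on 77 and 73 reads, and it ranged from 27.0 to 31.6 in the other 6 V5 lists. On chromosome 10 from 98561243 to 98561664 it was 23.8 and 23.2, on 68 and 58 reads. On chromosome 9 from 42415890 to 42416234 it was 21.2 and 19.5, on 40 and 36 reads. A larger difference was seen on chromosome 9 from 70076589 to 70076915, with 21.5 without doxycycline and 15.1 with it, on 45 and 27 reads. Each of these 4 places overlapped a C4-2 RB site, and the first also overlapped a VCaP RB site.

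**Figure D3:**
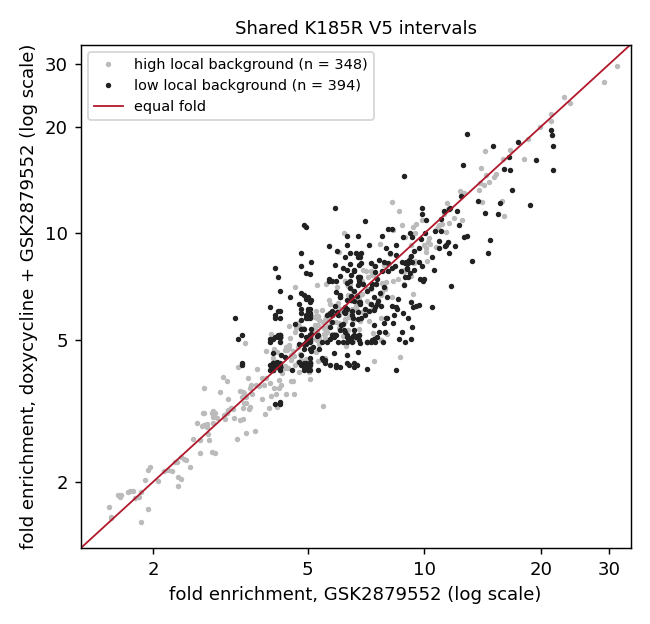
Deposited fold enrichment of the 742 shared K185R V5 intervals with GSK2879552 alone (x axis, log scale) and with doxycycline plus GSK2879552 (y axis, log scale). Black points are the 394 pairs of low local background, grey points the 348 others, and the red line marks equal folds. Points lie on both sides of the line, with 44.7% above it.

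At C4-2 RB sites the K185R list with doxycycline had fewer V5 intervals. Of 9146 sites, 505 had a V5 interval in both lists, 318 in the GSK2879552 list alone and 50 in the list with doxycycline alone. The share of sites with V5 was 8.998% without doxycycline (8.43 to 9.60) and 6.07% with it (5.597 to 6.58), a difference of -2.93 percentage points. With the 1000 highest intervals of each list the difference was -1.29 points. At 17026 VCaP RB sites these numbers were 162, 146 and 16, and the shares 1.81% and 1.05%, a difference of -0.764 points that became -0.255 at −log10 q of at least 5 and -0.0998 with the 1000 highest intervals. The fall in RB sites with V5, a ratio of 0.674 in C4-2 and 0.578 in VCaP, was smaller than the fall in list length of 0.353.

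Seen from the V5 lists, intervals at RB sites were lost less often than others. Of 771 GSK2879552 intervals at a C4-2 RB site 307 were lost (39.8%), against the 92.5% of the whole list. Of 508 intervals with doxycycline at such a site 47 were gained (9.25%), against 78.8% of the whole list. Intervals at RB sites also had more reads. Of the low-background GSK2879552 intervals, 193 of 356 at RB sites had 9 or more reads, against 166 of 9061 elsewhere. At equal reads the difference in the share lost was smaller. With 5 reads, 74.3% of low-background GSK2879552 intervals at RB sites were lost (57.9 to 85.8) and 98.4% elsewhere (97.96 to 98.8). With 7 or 8 reads it was 77.4% (65.6 to 86.0) and 90.03% (87.3 to 92.2). In these 2 ranges the Wilson intervals were separate. They overlapped at 4 or fewer reads, with 96.3% (81.7 to 99.3) and 98.6% (98.2 to 98.9), and at 6 reads, with 92.3% (79.7 to 97.3) and 97.6% (96.5 to 98.3). They also overlapped at 9 to 12 reads, with 54.0% (43.6 to 64.1) and 67.9% (59.7 to 75.1), and at 13 to 20 reads, with 31.1% (21.7 to 42.3) and 38.5% (22.4 to 57.5).

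K185R V5 was found most often at strong RB sites, with and without doxycycline. Low-background C4-2 RB sites were split by RB fold into 4 groups of equal size, and V5 intervals of any background were counted. In the group of highest RB fold, 17.2% had V5 without doxycycline and 11.9% with it. In the group of lowest RB fold these shares were 2.07% and 0.826%. The GSK2879552 share was higher in each of the 4 groups. RB sites that had V5 in both lists had a median RB fold of 8.75, those that lost it 6.87, those that gained it 6.62 and those without V5 in either list 5.67. Sites with V5 were less often RB sites in VCaP too. A VCaP RB interval was met by 68 of 323 sites with V5 in both lists (21.1%) and 107 of 270 that lost it (39.6%). The same held for 8 of 35 that gained it (22.9%) and 5050 of 8081 without V5 (62.5%).

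**Figure D4:**
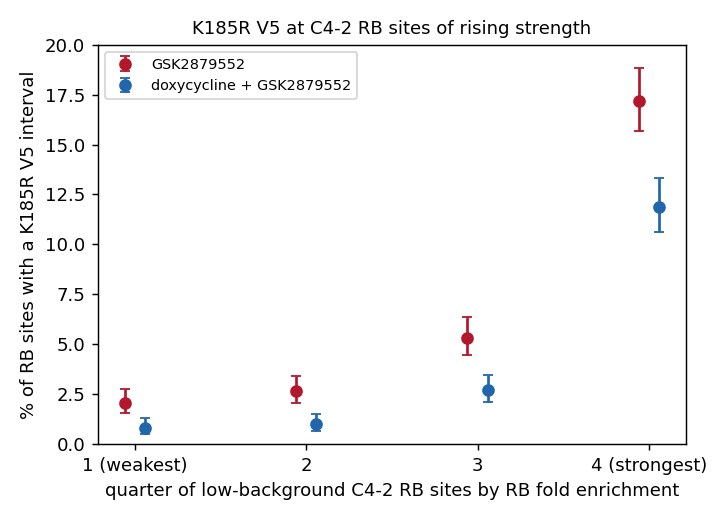
Share of low-background C4-2 RB sites with a K185R V5 interval (y axis, percent) in 4 equal groups of RB fold enrichment, weakest to strongest (x axis), with 95% Wilson intervals. Red is GSK2879552 alone and blue is doxycycline plus GSK2879552. Low background refers to the RB interval, and V5 intervals of any background were counted. The share rises to 17.2% and 11.9% in the strongest group.

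RB sites found in both cell lines, called two-line sites here, showed a larger fall than sites of C4-2 alone. Among 5233 low-background C4-2 RB sites that overlapped a VCaP RB interval, 175 had K185R V5 without doxycycline (3.34%, 2.89 to 3.87) and 76 with it (1.45%, 1.16 to 1.81), a ratio of 0.434. In detail 68 sites had V5 in both lists, 107 lost it and 8 gained it. At the 3476 low-background RB sites of C4-2 alone, 255 had V5 in both lists, 163 lost it and 27 gained it, a ratio of 0.675. This ratio was not recomputed at stricter thresholds, where that of two-line sites rose as given below. Whether the order of the ratios holds there was not tested. Under the same inhibitor, WT V5 was found at 529 of the two-line sites without doxycycline and 604 with it, with 287 in both lists, 242 lost and 317 gained. Without inhibitor the K185R numbers at two-line sites were 173 and 105, with 92 lost and 24 gained, and the WT numbers were 449 and 245, with 286 lost and 82 gained. At the 11807 low-background RB sites of VCaP alone, K185R V5 was found at 28 without and 4 with doxycycline under the inhibitor, and WT V5 at 98 and 136. These differences between lines were not tested, since each line has 1 list per treatment.

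**Figure D5:**
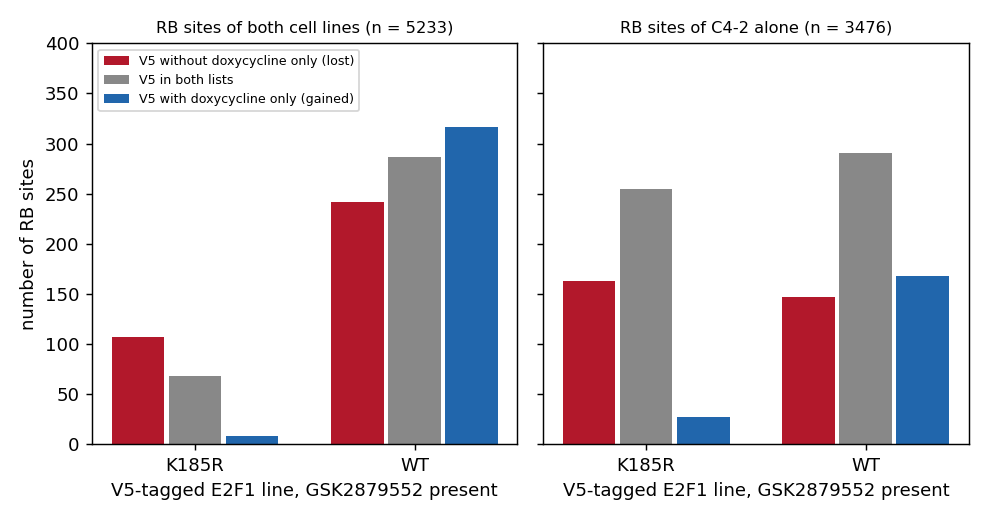
Number of low-background C4-2 RB sites (y axis) with a V5 interval without doxycycline only (red), in both lists (grey) or with doxycycline only (blue), all under GSK2879552, for the K185R and WT lines (x axis). V5 intervals of any background were counted. At the 5233 sites of both cell lines K185R lost 107 and gained 8, while WT lost 242 and gained 317.

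The 107 two-line RB sites that lost K185R V5 were weakly marked in these lists. Their V5 intervals had a median of 6 reads and a fold of 5.46, and 20 of them had 9 or more reads. If reads were kept in the ratio of depths, 99.3 of the 107 would be expected to pass, with the same limit as above for separate libraries. Their median V5 background was 1.56 times the floor and 2 lay on high background, whereas of the 68 sites with V5 in both lists 34 lay on high background without doxycycline. With only low-background V5 intervals the ratio of 0.434 became 0.273, and at −log10 q of at least 5 it was 0.712. Taking the top 1000 of each list by −log10 q, it was 0.759.

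The WT lists with GSK2879552 held more of these 107 sites than the remaining V5 lists outside the compared pair. The same was true over all 5233 two-line sites. There WT V5 was found at 604 with both agents, 529 with GSK2879552 alone, 449 untreated and 245 with doxycycline alone. K185R V5 was found at 173 untreated and 105 with doxycycline alone. The order of the lists at the lost sites was thus nearly that over all two-line sites. With both agents WT V5 was found at 69 of the 107 (64.5%, 55.1 to 72.9) and with GSK2879552 alone at 67 (62.6%, 53.2 to 71.2). At 80 it was found in either of these lists. K185R cells with doxycycline alone held 16 of the 107 (14.95%, 9.42 to 22.9), and untreated K185R cells 36 (33.6%). Untreated WT cells held 57 (53.3%, 43.9 to 62.4), and this Wilson interval overlapped those of both WT lists with GSK2879552. WT cells with doxycycline alone held 35 (32.7%), close to the share in untreated K185R cells. The order was different at the 163 lost RB sites of C4-2 alone, where WT with both agents held 76 (46.6%) and K185R with doxycycline alone 101 (62.0%). Over all 3476 low-background RB sites of C4-2 alone, these lists held 459 and 427. Of the 107 sites, 18 were in none of the other 6 V5 lists and 4 in all of them.

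The 6 lost intervals of highest −log10 q at two-line RB sites that also had V5 in both WT lists with GSK2879552 were chosen after the values had been seen. One is the interval near the end of chromosome 1 given above. It overlapped a C4-2 RB site that met a VCaP RB interval, but the V5 interval itself met none in VCaP. On chromosome 16 from 28962042 to 28962320 K185R V5 had a fold of 8.48 on 13 reads with GSK2879552 alone and no interval in the other 3 K185R lists. WT lists had 10 reads there untreated, 21 with GSK2879552, 21 with both agents and none called with doxycycline alone, and RB had folds of 5.39 in C4-2 and 12.02 in VCaP. V5 in both WT lists under the inhibitor, and in K185R cells under the inhibitor only without doxycycline, was the rule of choice for all 6 intervals. That part of their pattern is therefore not a result.

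On chromosome 4 from 83934016 to 83934236 K185R V5 had 12 reads with GSK2879552 alone and 7 with doxycycline alone, and no interval untreated or with both agents. WT V5 had 12 reads in untreated cells and 24 under both agents, against 16 for doxycycline and 13 for GSK2879552 alone. On chromosome 14 from 53196743 to 53196966 K185R V5 had 12 reads with GSK2879552 and no interval under the other 3 treatments, while the 4 WT lists had 15 to 20 reads. The highest C4-2 RB fold of the 6 was on chromosome 12 from 72233337 to 72233609, with RB folds of 12.5 in C4-2 and 10.5 in VCaP. There K185R V5 had 10 reads with GSK2879552, 4 untreated and 7 with doxycycline. On chromosome 14 from 96858089 to 96858279 it had 11 reads with GSK2879552 and 8 untreated, and WT V5 had 19 reads untreated, 13 with GSK2879552, 14 with both and none called with doxycycline.

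Gains at RB sites were fewer than losses. Of the low-background gained intervals 19 of 2714 lay at a C4-2 RB site, against 208 of 9015 lost ones. Of these low-background V5 intervals at RB sites, 8 of the 19 gained and 72 of the 208 lost had 9 or more reads. Another set is the low-background C4-2 RB sites, where V5 intervals of any background were counted. There the V5 interval had a median of 12 reads at the 35 sites that gained it and 8 at the 270 that lost it. The median folds were 5.54 and 5.75. The gained ones of highest −log10 q were those on chromosomes 14 and Y given above, with 11 and 17 reads. The next lay on chromosome 5 from 46339442 to 46339631, with a fold of 6.30 on 12 reads and an interval in 5 of the other 6 V5 lists. At two-line RB sites the leading one, on chromosome 9 from 141122382 to 141122623, had a fold of 6.15 on 9 reads and RB folds of 5.62 in both cell lines. On chromosome 11 from 3675858 to 3676106 a gained interval with a fold of 5.87 on 8 reads was in no other V5 list, and RB had folds of 6.95 in C4-2 and 6.57 in VCaP. On chromosome 16 from 896977 to 897166 a gained interval with 7 reads overlapped a C4-2 RB site, and WT cells with both agents had 6 reads there.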

How the data were processed

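V5 and RB ChIP-seq intervals were analysed as 10 deposited lists, 1 per group of 1 or 2 libraries (19 libraries). The submitters' processing notes name BWA 0.7.9a, SAMtools 1.2, MACS2 2.1.0, FastQC 0.11.9 and build hg19. What each program did, its parameters and any control library were not given in the sources used here. Per interval the authors deposited the fold enrichment, the −log10 p, the −log10 q and the summit position. The fold is a ratio deposited by the authors and describes its own interval. Summit reads and background were solved from the deposited fold and −log10 p, assuming 1 read added to both terms of the fold and a Poisson p. This solution was checked on simulated data.

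The floor is the lowest background that at least 5 intervals share, and depth is the floor over the smallest interval width. Depth ranged from 0.716 to 1.79 reads per kilobase in V5 lists and was 8.21 and 2.98 for RB. Intervals were named by rank of −log10 q in each class (5 of low background, also at RB sites, and 2 of high background), without chromosome 8. Those at two-line RB sites were added after seeing the data. Members and lists were chosen with earlier results of these data known. Nearby genes, motifs and sequences were not analysed here, because the gene table used is on GRCh38 and positions were not converted. Python 3.11.15, numpy 2.4.6, scipy 1.17.1, pandas 2.3.3 and matplotlib 3.10.9 were used.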

Additional observations from a re-analysis of the deposited data

Results flagged for a closer look

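Under GSK2879552, doxycycline went with fewer V5 intervals at two-line RB sites in K185R cells and with more in WT cells. The number of such sites with doxycycline over that without was 0.434 in K185R (76 against 175) and 1.14 in WT (604 against 529). The depth moved in the same direction, 0.818 times in K185R and 1.13 times in WT. In K185R cells without inhibitor the depth was 0.625 times and the ratio at two-line sites 0.607. In WT cells without inhibitor the directions differed, with a depth of 1.15 times and a ratio of 0.546. The part of depth in the result was not tested. The difference between the lines was not tested either, since each line has 1 list per treatment.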

How the results depend on the processing

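Of the 5 results recomputed here, the 2 ratios stayed under 1 and the 2 differences at RB sites stayed negative under each alternative run, whereas the shared part of the list with doxycycline went from a minority to a majority under 2 of them. The ratio of list lengths, 0.353, was 0.652 at −log10 q of at least 5, 0.392 by covered bases, 0.332 at low background, 0.370 with the deeper list scaled to the shallower depth and 0.394 with its expected number of intervals under random loss of reads. The shared part of the list with doxycycline, 21.2%, was 75.6% at −log10 q of at least 5, 50.1% among the 1000 intervals of highest −log10 q, 18.4% with 50% of both intervals overlapping, 18.2% by summits within 100 bases and 12.6% at low background. The difference at C4-2 RB sites, -2.93 percentage points, was -1.29 with the 1000 highest intervals and -2.10 at low background. At VCaP RB sites, -0.764 became -0.255 at −log10 q of at least 5 and -0.0998 with the 1000 highest. The ratio at two-line RB sites, 0.434, was 0.712, 0.759 and 0.273 at −log10 q of at least 5, with the 1000 highest and at low background. The depth expectation and all alternatives at two-line RB sites were chosen after seeing the data. The cause of these shifts was not tested. The share of intervals near gene starts was not run. No paired analysis was possible because the libraries of each group are joined in 1 list, and for the same reason no library could be left out. With 5 reads behind the median summit, single intervals are weakly supported.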

Other observations

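Gained and lost intervals of low background were spread over the chromosomes in similar proportions. On the autosomes the number gained for each one lost ran from 0.218 on chromosome 16 to 0.385 on chromosome 13, and was 0.301 over all chromosomes. In 600 windows of 5 Mb that held at least 1 such interval, the median window had 4 gained and 15 lost intervals. Pearson's r between both counts was 0.45 over these windows, which share libraries, depth and copy number between them. The window with the most lost intervals was on chromosome 13 from 20 to 25 Mb, with 47 lost and 12 gained. The next windows along that chromosome had 25 lost and 18 gained (25 to 30 Mb, the most gained of any window) and 44 lost and 11 gained (30 to 35 Mb).

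On chromosome Y the shares gained and lost were lower than on the autosomes. Of the 15 low-background intervals there in the list with doxycycline 4 were gained (26.7%), against 65.9% to 94.6% on the autosomes. Of the 35 in the list without doxycycline 23 were lost (65.7%), against 89.9% to 97.9% on the autosomes.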
